A study of Mus musculus with 2 samples.

Results

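Lone CTCF regions are stretches listed as CTCF peaks with no other listed stretch nearby. They were chosen by distance: 25-bp windows in CTCF peaks that touched each other were joined, and an autosomal region was kept if the gap to its nearest region was over 100 kb and at most 1 Mb on each side. This left 986 of 50386 autosomal regions, or 1.96% (95% Clopper-Pearson interval 1.84% to 2.08%). Distances therefore describe how the members were picked. Width and chromosome were not part of the rule, although the number of lone regions on a chromosome depends on how densely all of its regions lie.

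CTCF binding had been mapped by ChIP-seq, in which DNA bound to an immunoprecipitated protein is sequenced, in CD4+CD8+ (double-positive, DP) thymocytes. The mice were C57BL/6, 4 to 8 weeks old, of the genotype Rag1 -/- with a rearranged TCRbeta transgene, which lets thymocytes pass the beta-chain checkpoint although their own receptor genes cannot be recombined. The labels list a CTCF library made with an anti-CTCF antibody and an input library of the same genotype, and only the listed CTCF windows were analysed here. The number of mice behind the library is not given in the labels. The list carries no read count, height or score, so depth is unknown, no test between conditions or against replicates was possible, and intervals cover counting error only and treat regions as independent. No expression was measured, so the cell type label could not be set against marker genes.

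CTCF is a DNA-binding protein with many zinc fingers. It halts cohesin as cohesin extrudes loops of chromatin, so that pairs of CTCF sites often mark loop anchors and the borders of contact domains. CTCF sites tend to be frequent in gene-rich DNA and sparse in gene-poor DNA. In developing T cells CTCF is also known for shaping antigen receptor loci.

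Lone regions were narrower than autosomal regions as a whole. Their median width was 450 bp (rank-based 95% interval 425 to 475 bp, n = 986), against 525 bp for all autosomal regions (525 to 525 bp, n = 50386). Mean widths were 402 bp for lone regions (SD 204 bp across regions) and 442 bp for all (SD 252 bp). The lower quartile was 225 bp in both sets, whereas the upper quartile of lone regions was 50 bp below the 625 bp of all.

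The wide end of the distribution was thinly filled. Of the 986 lone regions, 243 (24.6%, interval 21.98% to 27.5%) were of full width, taken here as within 50 bp of the most frequent autosomal width of 625 bp, against 35.4% of all autosomal regions. Only 16 lone regions (1.62%, 0.930% to 2.62%) were wider than 700 bp, against 6.13% of all. A single lone region (0.101%, 0.00257% to 0.564%) exceeded 1 kb, compared with 1.05% of all. The background share lay above the interval of the lone regions in each of these 3 classes.

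The most frequent width of lone regions was 550 bp, with 78 regions, followed by 625 bp with 72. Among all autosomal regions it was 625 bp, with 4796. Widths of 450 to 550 bp were each more frequent among lone regions, and widths from 600 bp to 850 bp were each less frequent. At 550 bp the shares were 7.91% of lone regions and 4.58% of all, and at 650 bp they were 4.16% of lone regions and 8.34% of all. The upper part of the distribution thus lay more at smaller widths in the lone set. Its most frequent width rests on 78 against 72 regions. It was 625 bp among the 476 lone regions whose smaller gap was 100 to 150 kb and among the 226 with 150 to 200 kb.

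A second, smaller peak at 325 bp was taller among lone regions. It held 65 of them (6.59%, 5.12% to 8.33%), against 3.89% of all autosomal regions. The widths beside it were also more frequent among lone regions, with 2.23% against 1.71% at 300 bp and 3.45% against 2.14% at 350 bp. Widths of 100 to 300 bp took up 216 lone regions (21.9%, 19.4% to 24.6%), against 16.4% of all.

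**Figure D1:**
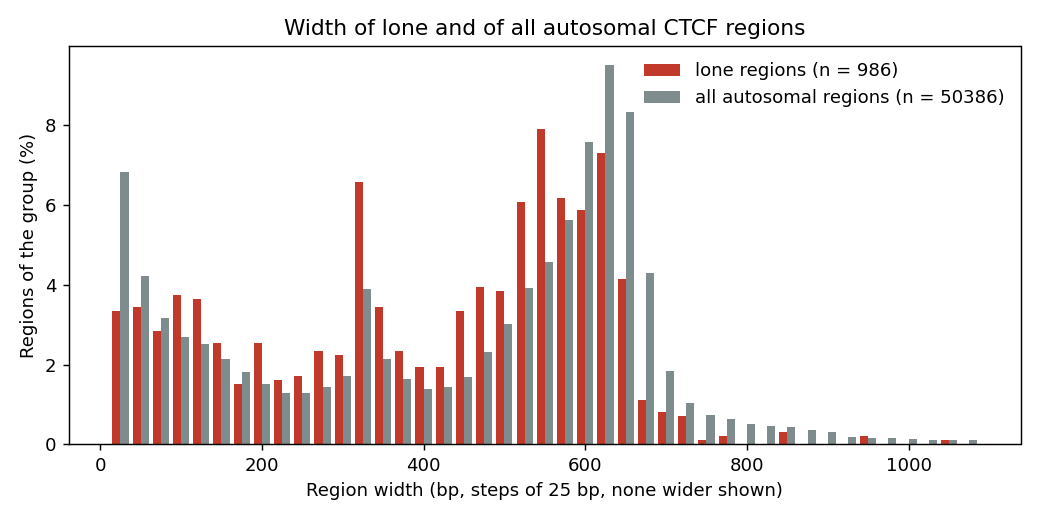
Share of regions (y axis, %) at each width in steps of 25 bp (x axis), for 986 lone regions (red, left bar of each pair) and 50386 autosomal regions (grey, right bar, lone ones included). Lone regions are over-represented at 325 bp and at 450 to 550 bp and under-represented from 600 bp to 850 bp.

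Very short regions gave a different picture depending on the background. At most 75 bp wide were 95 lone regions (9.63%, 7.87% to 11.6%), against 14.2% of all autosomal regions. Many short regions, however, sit beside another region: within 1 kb of their nearest neighbour, 34.5% of 13584 regions were this short. Among the 36802 autosomal regions with no other within 1 kb, 6.74% were this short, fewer than among the lone ones. The median width of these 36802 regions was 550 bp and 40.6% of them were of full width, so the difference in width from the lone regions was larger against this background than against all regions.

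Beyond 1 kb, width declined with distance. Regions with a nearest region up to 1 kb away had a median width of 225 bp. The median was 50 bp above that of all regions both at 1 to 5 kb and at 5 to 10 kb, 550 bp both at 10 to 25 kb and at 25 to 50 kb, 500 bp at 50 to 100 kb and 450 bp beyond 100 kb. The share of full-width regions was lower with distance over the classes beyond 1 kb, at 42.7%, 42.5%, 40.4%, 39.96%, 32.8% and 23.4%. Intervals of the last 2 shares, 30.7% to 35.01% and 21.1% to 25.9%, did not overlap each other or those of the nearer classes beyond 1 kb. Of the 1234 regions in the class beyond 100 kb, 986 were the lone regions, so its values largely restate theirs.

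**Figure D2:**
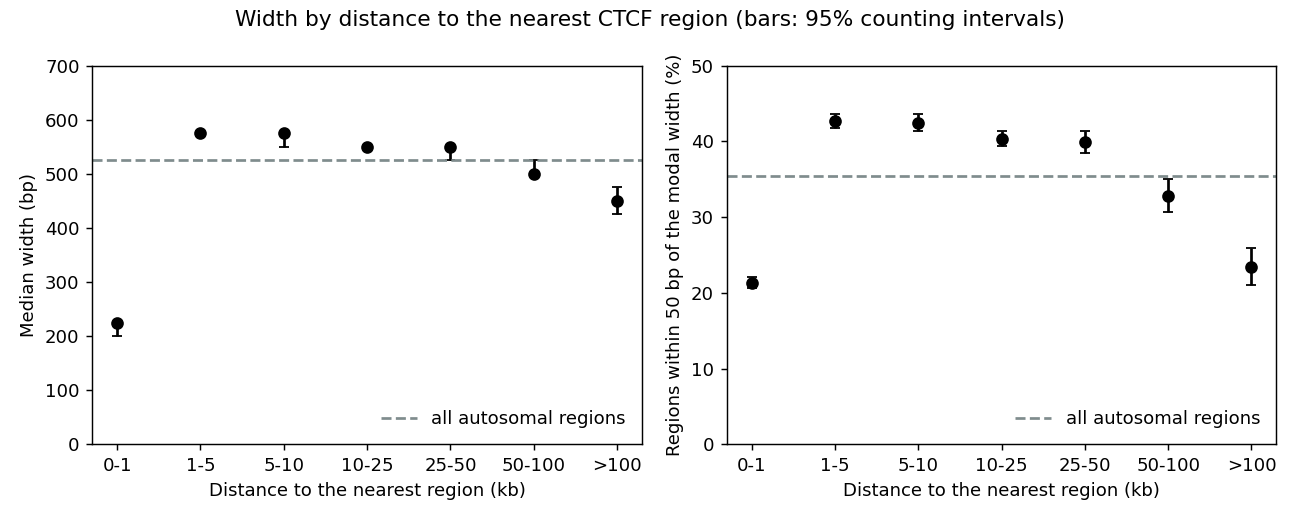
Median width in bp (left) and share of full-width regions, within 50 bp of 625 bp, in % (right) of autosomal regions grouped by the distance to their nearest region (x axis, kb). Bars are 95% intervals (rank-based and Clopper-Pearson), the dashed line marks all autosomal regions, and both measures decline from 1 to 5 kb to over 100 kb, where the median is 450 bp. Of the 1234 regions in that last class, 986 are the lone regions.

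Regions with a wide gap on 1 side only had the median width of autosomal regions as a whole. Regions with a gap of over 100 kb on 1 side only numbered 5985, and their median width was 525 bp, with 36.8% (35.6% to 38.1%) of full width. The 43140 regions with gaps of at most 100 kb on both sides also had a median of 525 bp and 35.5% of full width. Both classes lay below the 36802 autosomal regions with no other within 1 kb (median 550 bp, 40.6% of full width). Neither class leaves out regions this close to another. The 237 regions that met the lower limit on both sides but had a gap of over 1 Mb, and so were not members, were narrower still in median (400 bp, 325 to 475 bp), and 18.6% of them were of full width (13.8% to 24.1%). The intervals of these 237 regions overlapped those of the lone regions for both measures.

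Among the lone regions themselves, median width was lower in the classes with larger gaps, with intervals that overlapped between neighbouring classes. With a smaller gap of 100 to 150 kb the median width was 475 bp (476 regions), and with 150 to 200 kb it was again 475 bp (226 regions). It was 400 bp at 200 to 300 kb (166 regions), 350 bp at 300 to 500 kb (88 regions) and 387.5 bp above 500 kb (30 regions). The share of full width was 26.9%, 28.8%, 20.5%, 13.6% and 13.3% in these classes. Beyond 300 kb the intervals were wide, and in the last class that of the share ran from 3.76% to 30.7%.

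A lower median was found on most chromosomes, but the size of the difference varied. It was 350 against 525 bp on chromosome 1 and 325 against 500 bp on chromosome 13. On chromosomes 7 and 19 it was only 512.5 against 525 bp and 537.5 against 550 bp. No intervals were computed for the medians of single chromosomes. Lone regions had a lower median width than all regions of their chromosome on 18 of 19 autosomes, and on chromosome 10 both medians were 525 bp. The share of full-width regions was lower among lone regions on 18 of 19 autosomes, the exception being chromosome 19, where it was 38.9% of only 18 lone regions and 38.1% of all. The lowest median of lone regions was 325 bp on chromosome 13 (60 regions), where 11 were at most 75 bp wide, and the highest was 537.5 bp on chromosome 19. No lone region of chromosome 16 was at most 75 bp wide (0 of 35).

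Widths were also compared among regions with a like number of others around them. Regions were grouped by the number of other regions in their 10-Mb bin, a grouping added after the data were seen. In bins with 0 to 49 others the median width was 400 bp for 77 lone regions (325 to 475 bp) and 500 bp for 781 other regions (450 to 525 bp). In bins with 300 or more it was 400 bp for 145 lone regions (325 to 475 bp) and 525 bp for 21223 other regions (525 to 550 bp). In the 3 classes between these, lone medians were 475, 475 and 450 bp, and those of other regions were 525 bp in each. Lone regions had the lower median in all 5 classes, but in the 2 sparsest classes the intervals overlapped (400 to 525 bp for lone and 500 to 525 bp for other regions in bins with 50 to 99 others). The share of full width was lower among lone regions in all 5 classes, with intervals that did not overlap. In bins with 0 to 49 others it was 14.3% (7.35% to 24.1%) against 32.1% (28.9% to 35.5%). In these bins, other regions with no region within 1 kb had a median of 525 bp (500 to 550 bp, n = 618).

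The gaps beside lone regions spanned the allowed range unevenly. The smaller gap had a median of 152.5 kb (quartiles 121.3 and 215.4 kb) and ran from 100.2 to 924.2 kb. The larger gap had a median of 300.4 kb (quartiles 199.3 and 519.96 kb) and reached 991.4 kb. Both gaps were at most 200 kb at 251 lone regions (25.5%), and both exceeded 200 kb at 284 (28.8%) and 500 kb at 30. The larger gap was over 2 times the smaller at 373 lone regions (37.8%). It lay on the low-coordinate side at 475 regions (48.2%) and on the high-coordinate side at the others.

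**Figure D3:**
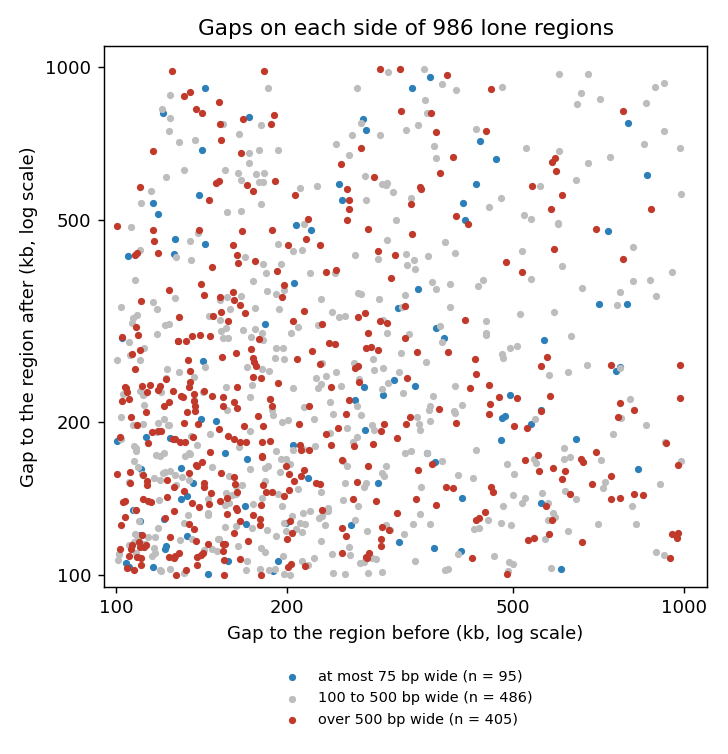
Gap to the region before (x axis) and after (y axis) each of 986 lone regions, in kb on log scales, coloured by width: at most 75 bp (95, blue), 100 to 500 bp (486, grey) and over 500 bp (405, red). Points fill the square between 100 kb and 1 Mb, densest near its lower left corner and all 3 width classes spread through it.

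Regions just inside and just outside the limits of the rule are given here as a description. The lone regions closest to the lower limit had smaller gaps of 100.2, 100.25, 100.35, 100.35 and 100.4 kb and widths of 725, 550, 150, 225 and 550 bp. The nearest regions outside it had smaller gaps of 99.9, 99.9, 99.7, 99.7 and 99.7 kb and widths of 600, 175, 325, 500 and 600 bp. The 132 lone regions with a smaller gap of up to 110 kb had a median width of 450 bp (400 to 500 bp), and 9.09% of them (4.79% to 15.3%) were at most 75 bp wide. The 161 regions with a smaller gap of 90 to 100 kb and a larger gap inside the limits had a median of 500 bp (450 to 525 bp). Of these, 2.48% (0.681% to 6.24%) were this short. The intervals overlapped for both measures. At the upper limit, larger gaps of 991.4, 991.1, 989.25, 989.25 and 987.9 kb lay inside, with widths of 125 to 525 bp at 4 of these 5 regions. Larger gaps of 1001.8, 1003.0, 1003.0, 1006.6 and 1006.6 kb lay outside, with widths of 525, 250, 25, 525 and 325 bp.

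The 9 lone regions wider than 725 bp stood on 9 different chromosomes, and 7 further ones were exactly 725 bp wide. Positions are given in mm9, the build named in the submitters' processing notes, and since no mm9 annotation was used here no region is assigned to a gene, exon or intron. The widest, 1050 bp on chromosome 5 (86619671 to 86620720), had gaps of 123.6 kb before and 219.1 kb after it. Next came 2 regions of 950 bp, on chromosome 2 (66094449 to 66095398, gaps 266.0 and 152.5 kb) and on chromosome 1 (7194696 to 7195645, gaps 115.7 and 191.15 kb). Regions of 850 bp lay on chromosome 18 (from 9449807), chromosome 17 (from 49070777) and chromosome 13 (from 73297471). The remaining 3 were 775 bp wide on chromosomes 6 and 10 and 750 bp wide on chromosome 3. The smaller gap was below 200 kb at all 9. Of the 7 tied at 725 bp, the one with the largest smaller gap (280.5 kb) lay on chromosome 14 (from 105213070) and is counted as the tenth widest.

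The 10 most isolated regions were 25 bp to full width. The one with the largest smaller gap lay on chromosome 11 (47471571 to 47472070), was 500 bp wide and had 924.2 kb before it and 930.2 kb after it. It was followed by a region of 200 bp on chromosome 14 (111161895 to 111162094, gaps 888.2 and 911.7 kb) and one of 325 bp on chromosome 16 (63872253 to 63872577, gaps 857.6 and 850.9 kb). The widest of the 10 lay on chromosome 1 (144638796 to 144639370, gaps 780.1 and 820.65 kb). The narrowest was a single window of 25 bp on chromosome 5 (133503646 to 133503670), with gaps of 795.95 and 774.2 kb. The other 5 were 100 to 475 bp wide, on chromosomes 14, 4, 8, 3 and 16. None of the 10 widest regions was among the 10 most isolated.

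Every autosome held lone regions, between 18 and 79 of them. Over the autosomes there were 0.399 lone regions per Mb, against 20.4 regions per Mb of any kind. Chromosome 15 had the most per Mb at 0.561 (95% Poisson interval 0.426 to 0.725, 58 regions), followed by chromosome 13 at 0.499 (0.381 to 0.642) and chromosome 18 at 0.497 (0.362 to 0.664). Chromosome 19 had the fewest at 0.293 (0.174 to 0.464, 18 regions), followed by chromosome 17 at 0.305 (0.204 to 0.438) and chromosome 4 at 0.315 (0.233 to 0.416). These are the extremes of 19 chromosomes, picked for their values. The intervals of chromosomes 15 and 4 did not overlap, while that of chromosome 15 overlapped those of chromosomes 17 and 19. Per Mb, lone regions differed 1.91-fold between the extreme chromosomes, and all regions 2.26-fold.

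As a share of the regions of a chromosome, lone regions varied more. They made up 3.26% on chromosome 18 (Clopper-Pearson interval 2.39% to 4.34%) and 3.01% on chromosome 13 (2.30% to 3.85%), but 1.06% on chromosome 11 (0.765% to 1.42%) and 1.14% on chromosome 19 (0.677% to 1.79%). Over 19 chromosomes the share ran against the density of all regions, with Pearson's r = -0.854 and Spearman's rho = -0.853. It ran against protein-coding genes per Mb (GRCm38 gene counts over the length covered here) with r = -0.852 and rho = -0.875. For lone regions per Mb the values were r = -0.508 and rho = -0.64 against all regions, and r = -0.618 and rho = -0.744 against genes. These are descriptions over chromosomes of 1 library, and a rule based on distance ties the number of lone regions to density.

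**Figure D4:**
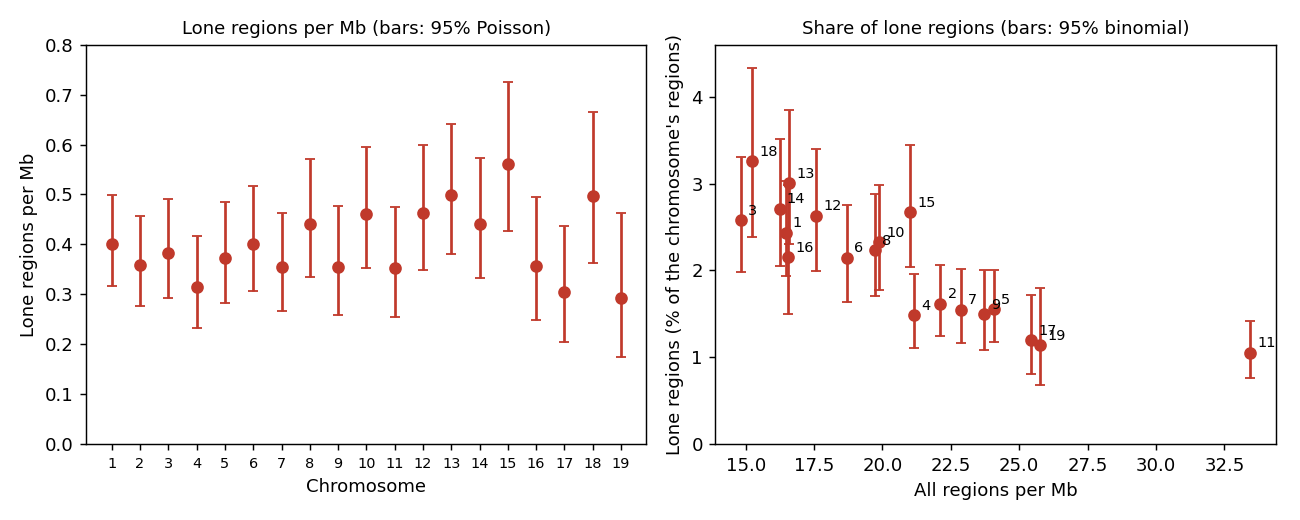
Lone regions per Mb on each of 19 autosomes (left, bars are 95% Poisson intervals) and their share of the chromosome's regions in % against all regions per Mb (right, bars are 95% binomial intervals, numbers name chromosomes). The share is highest on chromosome 18 at 3.26% and lowest on chromosome 11 at 1.06%, the chromosome with the most regions per Mb.

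Along the chromosomes, lone regions were spread more evenly than regions as a whole. Each autosome was divided from its first to its last region into 10 equal parts. The first part, next to the centromere in the mouse, held 128 lone regions (12.98%, 10.9% to 15.2%) and 7.06% of all regions. The last part, next to the far telomere, held 89 lone regions (9.03%, 7.31% to 10.99%) and 15.2% of all regions. Shares of lone regions ran from 8.01% to 12.98% over the 10 parts, and shares of all regions from 7.06% to 15.2%. Of the regions in the first part 3.60% were lone, against 1.16% in the last part. Here too, a rule based on distance ties the number of lone regions to density and limits it in crowded parts.

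Lone regions were not limited to the sparsest DNA. They occurred in 723 of 2481 1-Mb bins (29.1%), empty bins included, and in 234 of the 258 10-Mb bins that held any region. The 1-Mb bins with a lone region had a median of 12 regions of any kind, compared with 18 over all bins with a region, and the most crowded of them had 73. In 61 of the 1-Mb bins all regions were lone, and in 26 a lone region was the single region listed. By number in 10 Mb, chromosome 11 from 20000001 to 30000000 ranked first with 13 lone regions of 141, followed by chromosome 6 from 10000001 to 20000000 with 12 of 46 and chromosome 14 from 20000001 to 30000000 with 11 of 236.

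The gaps that the rule selects on made up a large part of the autosomes. Of the 50367 gaps between neighbouring autosomal regions, 3941 (7.82%) were over 100 kb and at most 1 Mb, and these made up 39.9% of the total gap length. After such a gap the next one was also of this size at 986 of 3937 regions (25.04%), which are the lone regions by definition, and after any other gap at 2951 of 46411 regions (6.36%). These shares describe the distances used to choose the members. Lone regions with both their gaps spanned 475.7 Mb, or 19.3% of the 2470 Mb of autosome covered, while holding 1.78% of the bases in CTCF regions.

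Many lone regions had another lone region as a direct neighbour. The 986 formed 699 runs, of which 508 held a single region, 128 a pair, 42 a triplet and 21 at least 4. On both sides of 96 lone regions (9.74%) the neighbour was also lone, and on 1 side of 382 (38.7%). Lone regions in runs of 3 or more had a median width of 375 bp (325 to 475 bp, n = 222), those in pairs 425 bp (375 to 475 bp, n = 256) and those without a lone neighbour 475 bp (450 to 500 bp, n = 508). The intervals of these 3 medians overlapped.

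The longest run counted 7 lone regions over 1973 kb of chromosome 11 (24314696 to 26287745). In order of position, the second to the last of these were 225, 550, 550, 100, 625 and 500 bp wide, and the gaps between them ran from 126.6 to 610.9 kb. Of these 7, the narrowest was the fifth, at 100 bp. A run of 6 on chromosome 14 (9440920 to 11285944) combined 4 regions of 325 to 625 bp with 2 of 50 and 25 bp, and contained a gap of 907.0 kb. A run of 6 on chromosome 12 (37910211 to 39506660) was spaced more regularly, with gaps of 211.95 to 437.1 kb inside it and a last region of 50 bp after others of at least 325 bp. Another 6 lay on chromosome 14 (23102870 to 24086194), within 983.3 kb, and were all at least 325 bp wide.

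**Figure D5:**
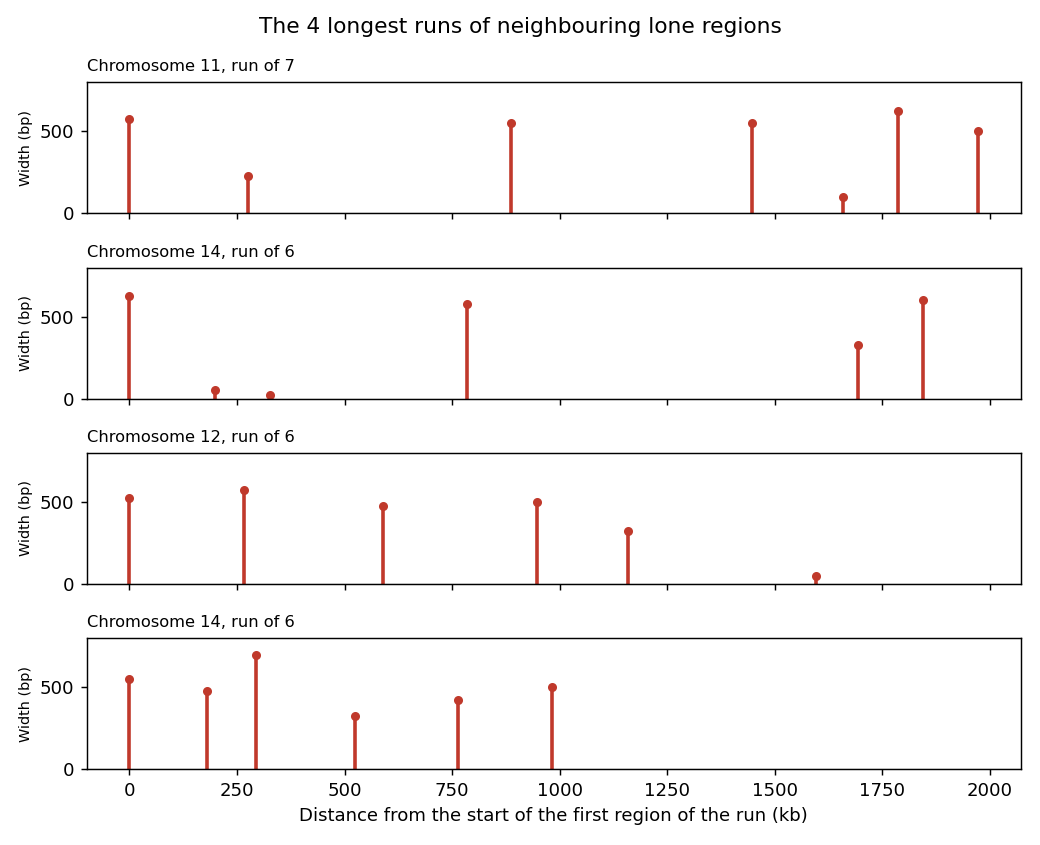
Each panel shows 1 of the 4 longest runs of neighbouring lone regions, with the distance from the start of the first region in kb on the x axis and the width of each region in bp as the height of its stem. The run of 7 on chromosome 11 extends over 1973 kb, and 3 of the 4 runs include narrow regions of 25 to 225 bp.

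Regions that flanked lone ones without being lone were close in width to autosomal regions as a whole. These 1398 regions had a median width of 512.5 bp (500 to 525 bp), and 35.05% of them (32.5% to 37.6%) were of full width, against 35.4% of all autosomal regions. Another region lay within 10 kb of 33.6% of them, whereas this was so for 66.03% of all autosomal regions. Their median distance to the nearest region was 23.9 kb, against 4.925 kb for all. The rule itself sets a wide gap on 1 side of each of them. Flanking regions were narrower than the 36802 autosomal regions with no other within 1 kb (median 550 bp, 40.6% of full width). Flanking regions this close to another were not left out of that comparison.

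A region split into pieces by a short break cannot be lone, so isolated groups were counted separately. After joining regions at most 1000 bp apart, 1073 units met the distance rule. Of these, 986 consisted of a single region, 76 of 2 regions and 11 of 3 or more. Groups thus made up 8.11% of isolated units (6.54% to 9.91%), against 13.9% of all 42739 units. Isolated groups of 2 or more regions spanned 75 to 3400 bp with a median of 400 bp, whereas groups anywhere on the autosomes had a median span of 925 bp.

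The largest isolated group held 6 regions over 3400 bp on chromosome 6 (50886946 to 50890345). The unit before it, at a distance of 128.3 kb, was itself an isolated group of 3 regions over 2150 bp (50756471 to 50758620). Joining at 10 kb, a setting added after the data were seen, gave 1215 isolated units, of which 18.8% were groups (16.7% to 21.2%), against 39.3% of all units at that distance. At either distance groups were less frequent among isolated units than among all units, beyond the counting intervals. Here too, a rule based on distance ties the choice of isolated units to density, so this contrast is a description.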

How the data were processed

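The submitters' processing notes name Bowtie and mm9. Which peak caller and threshold made the list, with which Bowtie version, and whether the input served as background, is not given in the sources used here. As deposited, the list gives 912174 windows of 25 bp as chromosome, start and end, and the authors gave no value per window. Starts were read as counted from 0 and are printed counted from 1. Touching windows were joined (gap 0 bp), which gave 51661 regions, of which 50386 lay on the 19 autosomes. A gap is the distance between the edges of neighbouring regions. The first and last region of each chromosome, 38 in all, lack a gap on 1 side and could not be members.

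The members, width classes and named regions were chosen with earlier results of these data known. The text names the 10 widest members, the 10 with the largest smaller gap, the longest runs and those next to each limit. Locus windows were not used, although planned. Medians carry exact binomial intervals of their rank, shares Clopper-Pearson intervals and densities exact Poisson intervals, all at 95% and for counting error only. Chromosome lengths run to the last listed position. The distance step was tested on simulated data. Gene numbers per chromosome come from RefSeq (GRCm38), with no coordinate of that build used. The alternatives were other joining distances, leaving out regions of at most 75 bp or below the median width, and other distance limits. Work was done in Python 3.11.15 with SciPy 1.17.1, pandas 2.3.3, matplotlib 3.10.9 and NumPy 2.4.6.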

Additional observations from a re-analysis of the deposited data

How the results depend on the processing

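The number of lone regions was 1049, 1061 and 1073 after joining regions at most 100, 500 or 1000 bp apart, 1016 without regions of at most 75 bp, 1054 among the 26127 regions of at least 525 bp and 1223 with no upper limit on the distance, against 986 as reported. All 986 were also found after each joining, which the rule fixes in advance, since no other region lies within 100 kb of a member. Of the 405 members at least 525 bp wide, the only ones that this width limit could keep, 323 were among the 1054. A distance of over 50 kb on each side gave 2795 regions with a median width of 500 bp, 30.02% of full width and 7.76% at most 75 bp wide. Over 200 kb gave 284 regions with a median of 375 bp, 17.6% of full width, 12.3% at most 75 bp and 0% over 1 kb wide. The share over 1 kb wide was 0.848% after joining at 500 bp and 1.86% at 1000 bp, where joined units include the breaks between regions, against 4.20% and 7.35% of all units. The median width was below 525 bp under each of the 7 settings for which it was computed; it was not computed for regions of at least 525 bp, where it cannot be lower. The share at most 75 bp wide did not keep its direction: it was 9.25%, 9.14% and 9.04% of lone units after joining at 100, 500 and 1000 bp, against 7.50%, 6.12% and 5.88% of all units. Lone regions per Mb of each chromosome were 1 to 1.29 times the reported values after joining at 1000 bp. Without regions of at most 75 bp they were 0.930 to 1.21 times the reported values. They stayed inside their Poisson intervals in 38 of 38 values (2 settings). Both settings share most of their members with the reported set, and these intervals do not measure effects of processing. No paired analysis was possible because the CTCF library was the single library analysed. An unlisted position shows neither weak binding nor its absence, since depth is unknown.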

Other observations

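The X chromosome, which the distance rule leaves out, held 65 regions that met the same distances among its 1274 regions. This was 5.10% of its regions (95% Clopper-Pearson interval 3.96% to 6.46%), against 1.96% on the autosomes, and 0.391 per Mb (95% Poisson interval 0.301 to 0.498), against 0.399 per Mb on the autosomes. Per Mb, lone regions were thus about as frequent on the X as on the autosomes within counting error. Lone regions of the X had a median width of 475 bp (350 to 550 bp) and all regions of the X one of 525 bp (500 to 525 bp), and these intervals overlapped.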
